A study of Homo sapiens with 9 samples.

Results

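The 9 genes described here encode the sensors of double-stranded RNA and the first proteins they act through: the RIG-I-like receptors DDX58 (RIG-I), IFIH1 (MDA5) and DHX58 (LGP2), the kinase EIF2AK2 (PKR), the synthetase OAS3, the endosomal receptor TLR3, the adaptor MAVS, the editing enzyme ADAR and the transcription factor IRF3. They were chosen by name, and 6 of the 9 had a row among the 14943 genes of the filtered count table. IFIH1, DHX58 and OAS3 had no row under either their identifier or their symbol, and are not analysed here. Every gene in that table reached at least 0.432 CPM (counts scaled to a common library total) in 3 libraries.

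SH-Sy5y is an established human neuroblastoma line. All 9 cultures were transfected for 48 h and each received 40 pmol of small RNA in total. In control cells (Ctrl) all of this was a negative control oligonucleotide. The 10 nM cells were given 20 pmol of the control and 20 pmol of miR-1229-3p precursor as a mimic, and the 20 nM cells 40 pmol of the mimic alone. There were 3 libraries in each group, and the series was designed to find direct targets of the microRNA. No untransfected cells were among the samples, so the comparisons are between cells that had all been given small RNA, and a response that the mimic and the control oligonucleotide share cannot be seen in them. In every comparison, more mimic goes with equally less control oligonucleotide, down to none at 20 nM, and their effects cannot be told apart.

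Long double-stranded RNA is a mark of viral replication. RIG-I and MDA5 bind it in the cytosol and signal through MAVS on mitochondria to the kinase TBK1, which phosphorylates IRF3 and switches on type I interferon, while TLR3 samples endosomes and signals through TICAM1. PKR, once bound to such RNA, phosphorylates eIF2α and slows translation, the OAS enzymes make a second messenger that leads to the decay of RNA, and ADAR edits the cell's own duplexes so that they are not taken for foreign ones. Several of the sensors are themselves induced by interferon, through the interferon-stimulated response element in their promoters.

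The mature microRNA of the mimic and the strongest matches to its seed in 3′ untranslated regions (UTRs) of the members are shown because they are where the mimic could act directly. The microRNA lies at chr5:179798278-179798300 (minus strand, RefSeq, GRCh38.p14), and capitals mark its seed, bases 2 to 8. In the UTR stretches (GENCODE 44, GRCh38), capitals mark the match to the seed, including, for EIF2AK2, the A opposite base 1, which does not pair with it.
miR-1229-3p: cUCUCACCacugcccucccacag
EIF2AK2 3′ UTR: tgtggccagttaGTGAGAAtgtagccttat
MAVS 3′ UTR: actccaacctgGGTGAGAgagcgagaccct
The EIF2AK2 site, at chr2:37103528-37103557 (minus strand), matches seed bases 2 to 7 with an A opposite base 1 (GTGAGAA), and that UTR of 8063 bases also holds 1 6-base match (GTGAGA). The MAVS site, at chr20:3867561-3867590 (plus strand), matches all of bases 2 to 8 (GGTGAGA). That UTR holds 6 matches of at least 6 bases in all, 2 of them to GTGAGAA and 3 of 6 bases only. ADAR had a single 6-base match, and DDX58, TLR3 and IRF3 had none. Among the 13779 genes of the table with an annotated 3′ UTR, 22.6% held a match of 7 or 8 bases and 15.8% a 6-base match only (2 and 1 of the 6 measured members).

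The interferon response element was looked for in RefSeq promoters (250 bases before to 50 after a start site, GRCh38.p14), since through it the members can rise together. Searched on both strands were GAAANNGAAA, held by 3.57% of 35116 promoters, and GAAANGAAA, held by 3.12%, either of them being found in 6.4%. Matches that share bases were counted apart. Capitals mark the match, which on the opposite strand reads TTTC first.
EIF2AK2 promoter: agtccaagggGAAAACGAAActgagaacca
TLR3 promoter: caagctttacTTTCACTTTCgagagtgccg
DDX58 promoter: ggtgcggaggGAAACGAAActagcccgagg
IFIH1 promoter: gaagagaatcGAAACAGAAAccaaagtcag
These stretches are chr2:37156967-37156996 (minus), chr4:186069142-186069171 (plus), chr9:32526380-32526409 (minus) and chr2:162318686-162318715 (minus), and their matches begin at -6, -4, -203 and -21 from the start site. OAS3 held 3 matches in its promoter. Neither the promoter of MAVS nor any of the 3 listed for ADAR held these letters. IRF3 and DHX58 are not covered here.

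Before the results, the libraries themselves need a description. Their depth was 17.4 to 28.2 M estimated counts. The 20 nM replicate 3 stood apart: its score on principal component 1 of log2 CPM (30.4% of the variance) was 47.4, where those of the remaining 8 libraries ran from -17.1 to 7.72. The count of members called and fitted values of EIF2AK2, ADAR and IRF3 are therefore also given without it. For genes outside the members no separate fitted value without it is printed. All 17 sympathetic neuroblast markers had a row, among them DBH at 1370 to 2110 CPM, although TH stayed at 0.122 to 0.914 CPM. Of 8 macrophage markers, 3 had a row (CD14, CD68 and LYZ) and these summed to 5.29 to 7.03 CPM, whereas the defining markers PTPRC, CSF1R and AIF1 had none. All 7 fibroblast markers had a row, with a summed level of 960 to 1330 CPM, most of it VIM. At 20 nM, 1 neuroblast marker was called higher and 5 lower, 1 fibroblast marker (LUM) higher, and none of the macrophage markers (4 higher, 3 lower, 0 and 0 under a replicate block, the shared number of the libraries), and their part in the results below was not tested. Of all genes, 7.8% were called higher and 6.08% lower at that concentration. In RNA from whole cultures, fewer cells that use a gene and less of its RNA per cell cannot be told apart. The labels number the replicates without saying how they were separated, so p-values measure the spread between these samples, which may be technical.

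None of the 6 measured members passed the test in any of the 4 comparisons: each mimic concentration with Ctrl, the higher concentration with the lower, and concentration taken as a number (the dose trend, with fold changes per 20 nM). The test was edgeR's quasi-likelihood test, with Benjamini-Hochberg adjustment over all 14943 genes and a threshold of 0.05. Of all genes, 0.649% were called at 10 nM, 13.9% at 20 nM, 2.79% between the concentrations and 17.5% in the dose trend. At an unadjusted p under 0.05, the members called numbered 0, 1 (EIF2AK2), 1 (ADAR) and 1 (EIF2AK2), where all genes gave 13.9%, 28%, 14.9% and 30.8%. DESeq2 also called 0 members in all 4 comparisons, where it called 1.37%, 12.1%, 3.18% and 15.2% of all genes. The likelihood-ratio test called 1 in the dose trend, where it called 20.7% of all genes, and 0 in the others. Without 20 nM replicate 3 the count was 1 at 20 nM and 1 in the dose trend, where 17.8% and 18.5% of all genes were called. With the replicate block instead of surrogate variables (estimates of unexplained variation between libraries) the count of members stayed at 0. Of all genes, the block called 0.0201% at 10 nM, 13.6% at 20 nM, 0.83% between the concentrations and 16.4% in the dose trend. With the block and 1 surrogate variable together the count of members was 1 at 20 nM and 2 in the dose trend, where 28.4% and 30.7% of all genes were called.

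The median log2 fold change of the 6 was 0.05 at 10 nM, 0.07 at 20 nM, 0.06 between the concentrations and 0.11 in the dose trend. Over all genes these medians were 0, 0, 0.003 and -0.001. CPM levels at 20 nM lay above every control library for 3 of the 6, EIF2AK2, TLR3 and ADAR, and below for none, while 15.2% of all genes lay wholly above and 13.7% wholly below. Between 20 nM and 10 nM only ADAR did not overlap, being higher at 20 nM as 7.92% of all genes were.

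The members spanned a wide range of levels. Per kilobase of the MANE transcript, the mean in control cells was 73.5 CPM for ADAR, 23.3 for IRF3, 11.2 for MAVS, 10.8 for EIF2AK2, 0.564 for DDX58 and 0.241 for TLR3. ADAR lay above IRF3, and IRF3 above the next pair, in all 9 libraries (69.7 to 80 against 22.2 to 34 CPM per kilobase). MAVS (11 to 12.1) and EIF2AK2 (10.5 to 12.1) overlapped, as did DDX58 (0.173 to 1.14) and TLR3 (0.2 to 0.369), so neither order holds beyond the spread of the libraries.

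**Figure D1:**
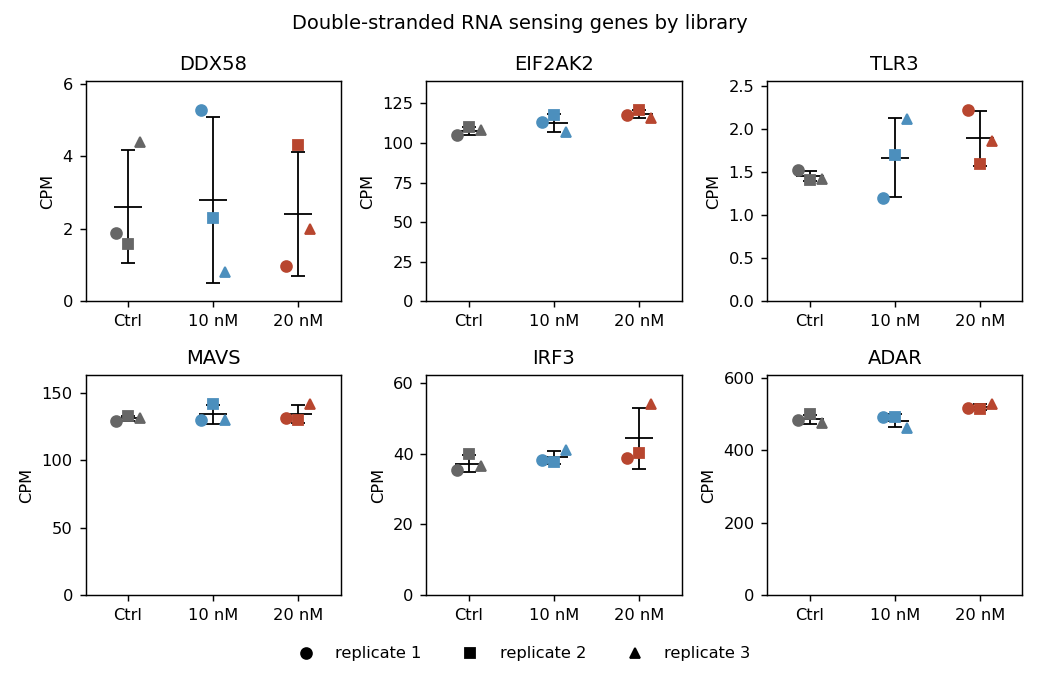
Level of each of the 6 measured members in CPM (vertical axis, from 0, each panel on its own scale) in the 3 groups; symbols are libraries by replicate number, and bars give the mean ± SD (n = 3). EIF2AK2, TLR3 and ADAR at 20 nM lie above all 3 control libraries, IRF3 is highest in 20 nM replicate 3 (54.2 CPM), and DDX58 scatters from 0.8 to 5.28 CPM with no order by group.

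Among the cytosolic receptors, DDX58 was measured and its 2 relatives were not. RIG-I, its product, recognises duplex ends that carry a 5′ triphosphate. DDX58 had 1.87, 1.57 and 4.39 CPM in the control libraries, 5.28, 2.31 and 0.8 CPM at 10 nM, and 0.963, 4.3 and 1.99 CPM at 20 nM. Each group held both high and low libraries and all 3 groups overlapped. Its pooled SD within groups was 1.056 on the log2 scale, above that of 99% of the 500 genes nearest to it in mean level, whose median SD was 0.29. The fitted log2 fold change at 20 nM was 0.03 ± 0.69 (SE), with an adjusted p of 0.984 and a 95% interval from 0.361-fold to 2.9-fold.

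The wide spread of DDX58 came with another row of the table. ENSG00000288684, a protein-coding read-through gene without a symbol on the same strand, has exons over 96.6% of the exonic bases of the DDX58 MANE transcript (gene at chr9:32455302-32526208, minus strand, GENCODE 44). The read-through row held 4.28, 6.38 and 3.09 CPM in control cells, 1.86, 5.01 and 5.49 CPM at 10 nM, and 5.69, 2.37 and 3.61 CPM at 20 nM. The 3 libraries highest in DDX58 were the 3 lowest in the read-through row, and the 3 lowest were its 3 highest. DDX58 took from 13.1% of their joint count in 10 nM replicate 3 to 74% in 10 nM replicate 1.

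Their sum was far steadier. It was 6.15, 7.95 and 7.48 CPM in control cells, 7.14, 7.32 and 6.29 CPM at 10 nM, and 6.65, 6.67 and 5.59 CPM at 20 nM. The highest library stood at 1.42 times the lowest, against 6.6 times for DDX58 alone, and the pooled SD fell to 0.151 from 1.056. The group means were 7.19 ± 0.933, 6.92 ± 0.552 and 6.3 ± 0.617 CPM (SD, n = 3), and they overlapped. With the pair entered as 1 gene in a fit over the whole table, a step chosen after seeing these values, the log2 fold change was -0.03 ± 0.13 (SE) at 10 nM with an adjusted p of 0.949. At 20 nM it was -0.09 ± 0.15, with an adjusted p of 0.741 and a 95% interval from 0.754-fold to 1.17-fold. In the dose trend it was -0.15 ± 0.13, with an adjusted p of 0.485. The split of reads between these rows cannot be told apart from a change in the use of their transcripts in gene-level counts, and the sum is the more precise measure of the locus.

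**Figure D2:**
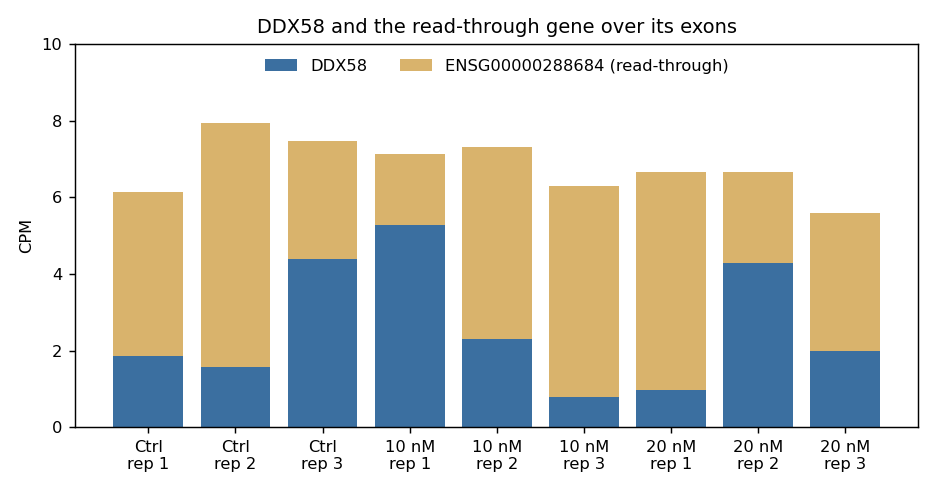
Stacked level in CPM (vertical axis, from 0) of DDX58 (blue) and of the read-through gene ENSG00000288684 over its exons (yellow) in each of the 9 libraries. The blue part varies from 0.8 to 5.28 CPM while the height of the whole bar stays between 5.59 and 7.95 CPM.

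EIF2AK2 came nearest to the threshold. It encodes PKR, the kinase that couples double-stranded RNA to a stop in translation, and its gene lies at chr2:37099210-37157522. Its level was 105, 110 and 108 CPM in control cells, 113, 118 and 107 CPM at 10 nM, and 118, 121 and 116 CPM at 20 nM. All 3 libraries at 20 nM exceeded all 3 controls, and the 10 nM libraries overlapped both groups. The means were 108 ± 2.68, 113 ± 5.93 and 118 ± 2.53 CPM (SD, n = 3).

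The fitted log2 fold change of EIF2AK2 was 0.07 ± 0.05 (SE) at 10 nM with an adjusted p of 0.518, and 0.08 ± 0.05 between the concentrations with an adjusted p of 0.488. At 20 nM it was 0.16 ± 0.05, a 1.11-fold difference with a 95% interval from 1.03 to 1.21 and an adjusted p of 0.0691 in the edgeR test. The dose trend gave 0.14 ± 0.05 per 20 nM, with an adjusted p of 0.0583. Without 20 nM replicate 3, the library that stood apart, the fold change at 20 nM was 0.15 and the adjusted p 0.0448, or 0.00864 when the number of surrogate variables was chosen again. The replicate block in place of surrogate variables gave 0.14 with an adjusted p of 0.122, and the block together with 1 surrogate variable gave 0.14 with an adjusted p of 0.0197. The estimate stayed between 0.12 and 0.17 in the 21 alternatives at 20 nM, and 3 of them called it. The alternative with no further filter repeats the reported fit, because the filter removed 0 genes.

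The 3 genes whose profile over the 9 libraries was most like that of EIF2AK2, by the root mean square difference of centred log2 CPM among 13683 genes with a mean of at least 1 CPM, were VCL (0.027), ATRN (0.029) and LDHB (0.03). The profile of EIF2AK2 itself had a root mean square of 0.07 on that scale, and the median difference over all those genes was 0.156. Only 0.351% of the exonic bases of EIF2AK2 lie under exons of a gene with a row on the other strand, GPATCH11.

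**Figure D3:**
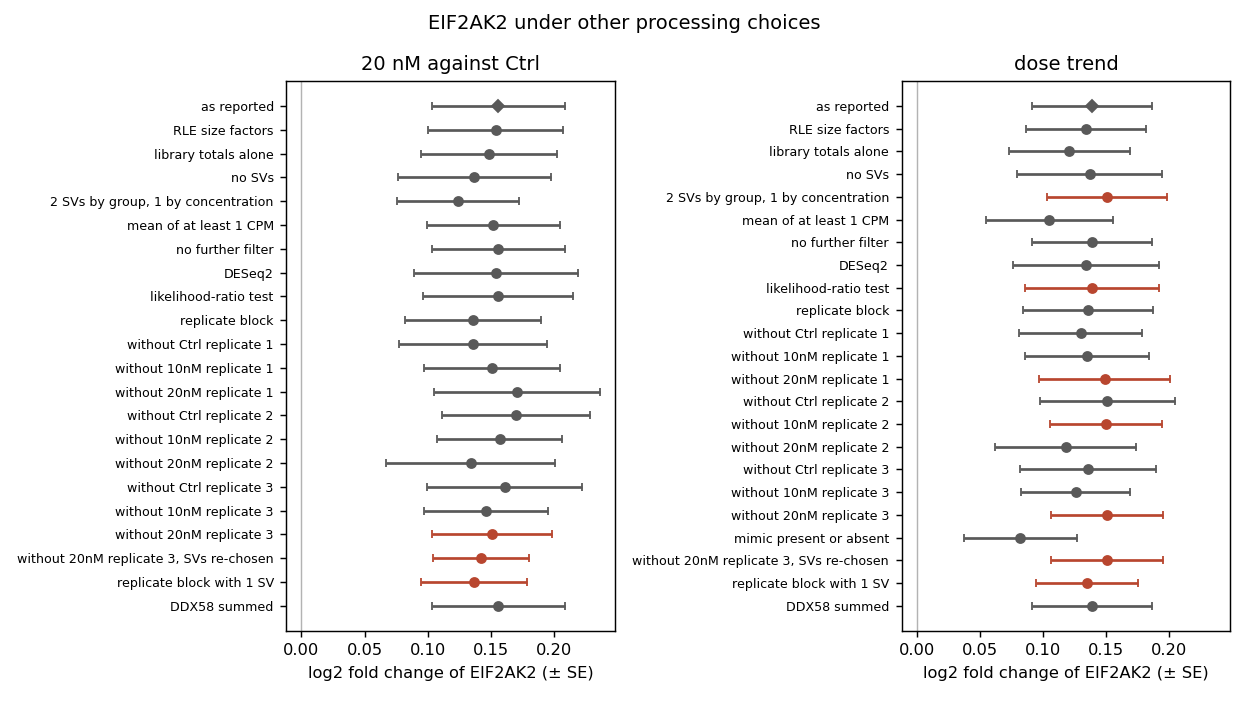
Fitted log2 fold change of EIF2AK2 (horizontal axis, points with ± SE) as reported (diamond) and under each alternative way of processing (circles), at 20 nM against Ctrl (left) and in the dose trend per 20 nM (right); SV stands for surrogate variable, and red marks an adjusted p under 0.05. Estimates stay above 0 in both panels, from 0.12 to 0.17 on the left and from 0.08 to 0.15 on the right, and the red points number 3 and 7. On the right, the fits without 20 nM replicate 3 gave the same counts over all genes and are not separate checks.

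OAS3, the synthetase of the set, had no row, so the OAS branch rests on other genes. Of 6 genes listed for it, 4 were tested and none was called in any comparison, where 0.649% to 17.5% of all genes were called. OAS1, which makes the same second messenger, had 3.6, 4.6 and 4.8 CPM in control cells, 4.35, 5.29 and 4.8 CPM at 10 nM, and 6.74, 5.55 and 5.19 CPM at 20 nM. The 20 nM libraries lay above every control, as in 15.2% of all genes, and the 10 nM libraries overlapped both groups. At 20 nM its log2 fold change of 0.51 ± 0.18 (SE) had an adjusted p of 0.0783. OASL lay under 0.6 CPM in every library, with 0.482 ± 0.0509 CPM in control cells and 0.319 ± 0.119 CPM at 20 nM (SD, n = 3) and an adjusted p of 0.183. ABCE1, a ribosome recycling factor, had a log2 fold change of 0.15 (adjusted p 0.0621), and PDE12, which degrades the second messenger, one of -0.08 (adjusted p 0.44). OAS2 had no row.

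Although its libraries overlapped those of DDX58, TLR3 had the lowest mean level per kilobase of the 6. It is a receptor of endosomes that is mostly found in immune and epithelial cells. It had 1.52, 1.41 and 1.42 CPM in control cells, 1.2, 1.69 and 2.11 CPM at 10 nM, and 2.22, 1.59 and 1.86 CPM at 20 nM. Each 20 nM library exceeded each control, and the 10 nM libraries ranged from below to above them. These levels stand for 26 to 53.1 estimated counts per library. At 20 nM the log2 fold change was 0.37 ± 0.30 (SE), the largest of the 6, with an adjusted p of 0.461 and a 95% interval from 0.828-fold to 2.02-fold, so a difference of this size was not detectable at this depth. Leaving out 20 nM replicate 1 brought it to 0.05.

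MAVS, the adaptor on mitochondria that RIG-I and MDA5 share, had 129, 133 and 131 CPM in control cells, 130, 142 and 130 CPM at 10 nM, and 131, 130 and 142 CPM at 20 nM. One library of each mimic group stood higher, the others lay within the range of the controls, and the groups overlapped. The log2 fold change was 0.03 ± 0.04 (SE) at 10 nM (adjusted p 0.831), -0.01 ± 0.05 at 20 nM (adjusted p 0.93) and -0.006 in the dose trend (adjusted p 0.943). MAVS carries the strongest seed match of the 6, and the 95% interval at 20 nM ran from 0.92-fold to 1.07-fold, so a fall to below 0.92 of the control level lay outside it. Its sign differed between alternatives, from -0.04 to 0.04 at 20 nM.

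IRF3, the transcription factor at the end of both relays, had 35.4, 39.8 and 36.4 CPM in control cells, 38.2, 37.8 and 41.1 CPM at 10 nM, and 38.8, 40.1 and 54.2 CPM at 20 nM. Only 20 nM replicate 3 lay well above the rest, and the groups overlapped. The log2 fold change at 20 nM was 0.06 ± 0.07 (SE) with an adjusted p of 0.622, and 0.09 with an adjusted p of 0.408 without that library. The replicate block gave 0.25 with an adjusted p of 0.136.

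In the dose trend, IRF3 gave 0.13 ± 0.06 with an adjusted p of 0.177. This value was called without 20 nM replicate 1 (0.25, adjusted p 0.0367) and under the replicate block with 1 surrogate variable (0.18, adjusted p 0.035), and fell to 0.07 (adjusted p 0.489) without 20 nM replicate 3. Exons of BCL2L12 on the other strand cover 14.2% of the exonic bases of IRF3, and whether the counting used strand is not given in the sources used here. BCL2L12 was also highest in 20 nM replicate 3, at 29.5 CPM against 23.8 to 27.4 CPM in the other 8 libraries, and its part in the IRF3 value was not tested.

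ADAR, the most abundant member, encodes the adenosine deaminase ADAR1, whose longer isoform is made from an interferon-responsive promoter. It had 483, 499 and 475 CPM in control cells, 493, 492 and 461 CPM at 10 nM, and 516, 513 and 529 CPM at 20 nM. The 20 nM libraries lay above all 6 others, and Ctrl and 10 nM overlapped. The means were 486 ± 12.5, 482 ± 18.2 and 519 ± 8.59 CPM (SD, n = 3).

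At 20 nM the log2 fold change of ADAR was 0.09 ± 0.05 (SE), a 1.06-fold difference with a 95% interval from 0.989 to 1.14 and an adjusted p of 0.257. Against 10 nM it was 0.10 ± 0.05, with an adjusted p of 0.317. Without 20 nM replicate 3 and with the number of surrogate variables chosen again, the 20 nM value was 0.08 with an adjusted p of 0.0406, the only one of 21 alternatives that called it. Gene-level counts do not separate the isoforms.

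**Figure D4:**
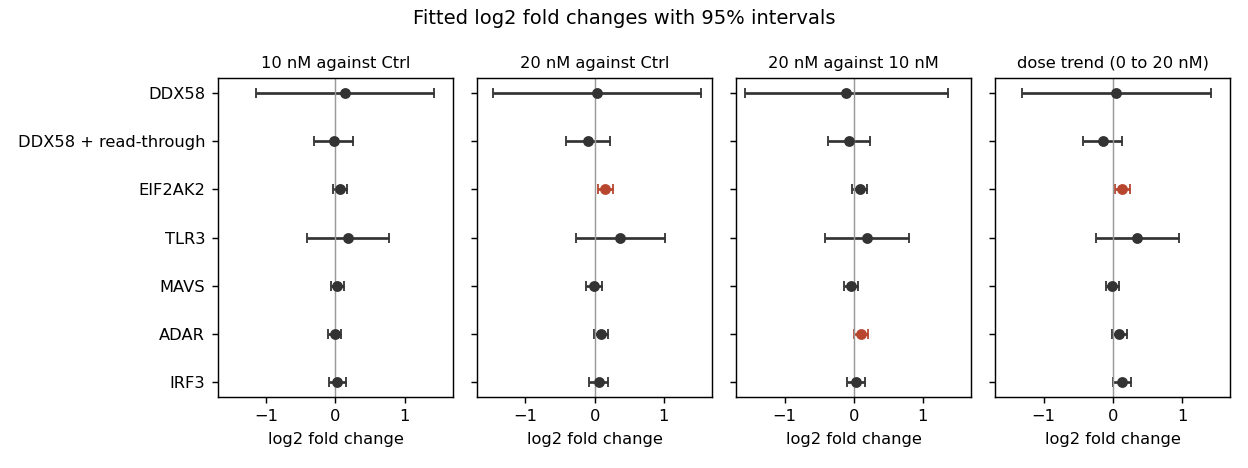
Fitted log2 fold change (horizontal axis, points with 95% intervals) of the 6 measured members and of DDX58 summed with its read-through gene, in the 3 comparisons between groups and in the dose trend per 20 nM; red marks an unadjusted p under 0.05, and no point passed an adjusted p of 0.05. Intervals are narrow for EIF2AK2, MAVS, ADAR and IRF3 and wide for TLR3 and DDX58, and summing the read-through row narrows that of DDX58 at 20 nM from 0.361 to 2.9-fold to 0.754 to 1.17-fold.

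The partners of the RIG-I-like receptors gave 4 calls at 20 nM among 20 tested genes, 1 higher and 3 lower, where 7.8% of all genes were called higher and 6.08% lower. CYLD, a deubiquitinase that trims the ubiquitin chains on RIG-I, fell from 33.2 ± 2.67 to 24.5 ± 1.1 CPM (SD, n = 3), a log2 change of -0.49 (adjusted p 0.00523). G3BP1, a stress granule protein that binds RIG-I, fell from 202 ± 4.57 to 173 ± 6.01 CPM (-0.19, adjusted p 0.0169), and MEX3C, a ubiquitin ligase, fell from 84.9 ± 5.54 to 67 ± 10.3 CPM (-0.19, adjusted p 0.0387). DHX36, a helicase, rose by 0.17 (adjusted p 0.0317), and its 20 nM replicate 3 at 79 CPM was below every control library. Under the replicate block DHX36 was at 0.07 with an adjusted p of 0.524, and the other 3 kept their calls.

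The call of CYLD held in all 21 alternatives (which include a repeat of the reported fit), that of G3BP1 in 19, of MEX3C in 15 and of DHX36 in 13. The median of the 20 was -0.01. The double-stranded RNA binders that modulate PKR and RIG-I were not called: PRKRA had a log2 fold change of -0.11 (adjusted p 0.262), TARBP2 of 0.06 (adjusted p 0.632) and DHX9 of 0.12 (adjusted p 0.155). RNF135 had no row.

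Of the 23 tested genes that relay the signal from MAVS and TLR3, TRAF3 was higher and JUN lower at 20 nM, and the median of the 23 was -0.02. At 20 nM 7.8% of all genes were called higher and 6.08% lower. TRAF3, the ubiquitin ligase that links MAVS and TICAM1 to TBK1, had 64.2, 72.7 and 72.1 CPM in control cells, 78.5, 83.1 and 85.4 CPM at 10 nM, and 89.8, 95 and 107 CPM at 20 nM. The 3 groups did not overlap and followed the concentration. TRAF3 was named for its small p at 20 nM, and the share of all genes separated in this way was not counted. Of all genes, 15.2% lay wholly higher at 20 nM than in control cells, and 7.92% wholly higher at 20 nM than at 10 nM. The log2 change of TRAF3 was 0.38 ± 0.06 (SE) at 20 nM (adjusted p 0.000848, called in 21 of 21 alternatives). JUN, a subunit of AP-1, fell by 0.53 on the log2 scale (adjusted p 0.00393) although 20 nM replicate 3 at 66.9 CPM was within the controls' range. Without surrogate variables the JUN value was -0.21 with an adjusted p of 0.461, and under the replicate block it was -0.23 with an adjusted p of 0.126.

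TICAM1, the adaptor of TLR3, had 19.5, 18.9 and 16.5 CPM in control cells, 22.3, 23.5 and 24.1 CPM at 10 nM, and 21.1, 24.5 and 24.6 CPM at 20 nM. All 6 mimic libraries exceeded the controls. The 20 nM libraries lay above every control in 15.2% of all genes, and the share at 10 nM was not counted. In the edgeR test the adjusted p of TICAM1 was 0.108 at 10 nM and 0.0554 at 20 nM. RELA, an NF-κB subunit, was at 0.14 (adjusted p 0.0943) and TBK1, the kinase of IRF3, at 0.08 (adjusted p 0.388). IKBKE had no row. In the dose trend 3 of the 23 were called, TRAF3 and RELA higher and JUN lower, where 17.5% of all genes were called. Under the replicate block 5 of the 23 were called higher at 20 nM and 0 lower, with a median of 0.09, and 13.6% of all genes were called in either direction. Those 5 were TRAF3, TICAM1 (0.35, adjusted p 0.0409), RELA (0.22, adjusted p 0.0422) and the NF-κB subunits NFKB2 (0.42, adjusted p 0.0254) and RELB (0.41, adjusted p 0.0464), the last pair being named after their values were seen. With surrogate variables in place of the block, the edgeR test had NFKB2 at -0.02 (adjusted p 0.966) and RELB at -0.40 (adjusted p 0.547), both of the other sign. In the dose trend the block called 4 higher and 0 lower, where it called 16.4% of all genes.

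In the PKR branch, 17 genes were tested at 20 nM, and 1 was called higher and 2 lower, with a median of 0.02. Of all genes, 7.8% were called higher and 6.08% lower at 20 nM. EIF2AK3 (PERK, the eIF2α kinase of the endoplasmic reticulum) rose by 0.27 on the log2 scale (adjusted p 0.00635), and its 47.1 ± 0.917 CPM in control cells stood against 53.4 ± 5.33 CPM at 20 nM. ATF4 (-0.29, adjusted p 0.023) and PPP1R15A (-0.41, adjusted p 0.0307), whose products accumulate when eIF2α is phosphorylated, fell in the fit. Their mean CPM hardly differed, at 152 ± 11.8 against 142 ± 23.2 and at 25.8 ± 3.67 against 24.7 ± 7.7. Without surrogate variables none of the 3 passed the threshold, with adjusted p of 0.178, 0.652 and 0.867, and under the replicate block they were 0.127, 0.259 and 0.669. EIF2S1, eIF2α itself, was at 0.16 (adjusted p 0.155). Under the replicate block EIF2S1 was the only one of the 17 called, at 0.20 (adjusted p 0.0407), where 13.6% of all genes were called.

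None of the 13 tested genes for editing and binding of double-stranded RNA was called at 20 nM in the edgeR test, and their median was -0.06. Of all genes, 13.9% were called there. At an unadjusted p under 0.05 there were 3 of the 13, where 28% of all genes passed. DGCR8, the partner of the nuclease DROSHA, was the nearest at -0.22 (adjusted p 0.0539) and was called in the dose trend at -0.20 (adjusted p 0.0129). The replicate block called 2 of the 13 at 20 nM, where it called 13.6% of all genes. They were DGCR8 at -0.25 (adjusted p 0.0282) and ADARB2, named after its value was seen, at 1.06 (adjusted p 0.024). With surrogate variables in place of the block, the edgeR test had ADARB2 at 0.63 (adjusted p 0.256). DROSHA was at -0.13 (adjusted p 0.139), ZNF346 at -0.16 (adjusted p 0.153) and DICER1 at 0.21 (adjusted p 0.188). ADARB1, the editing enzyme ADAR2, had 28.8 ± 2.05 CPM in control cells and 28.7 ± 3.94 CPM at 20 nM (SD, n = 3), with a fitted value of -0.16 and an adjusted p of 0.193.

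Further down, all 8 listed interferons, IFNB1 among them, had no row. The 15 tested genes for interferon receptors and their signalling gave 0 calls at 20 nM in the edgeR test, with 1 at an unadjusted p under 0.05. Of all genes, 13.9% were called there and 28% had an unadjusted p under 0.05. JAK1, a kinase of the receptors, was at -0.26 (adjusted p 0.0553) and was called in the dose trend (-0.24, adjusted p 0.0426). USP18, which brakes the receptor, was at 0.35 (adjusted p 0.186), IFNGR1 at 0.22 (adjusted p 0.194) and IFNGR2 at 0.16 (adjusted p 0.214). The replicate block called 2 of the 15 at 20 nM, where it called 13.6% of all genes. They were JAK1, lower at -0.23 (adjusted p 0.0381), and USP18, higher at 0.47 (adjusted p 0.0377).

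Of 46 interferon-stimulated genes, 33 were tested, and 3 rose and 0 fell at 20 nM, where 7.8% of all genes were called higher and 6.08% lower. Under the replicate block 4 were called higher and 1 lower, where 13.6% of all genes were called in either direction. None was called at 10 nM in the edgeR test, with 3 at an unadjusted p under 0.05. Their median was 0.09. DTX3L, a ubiquitin ligase, had 11.6, 12.3 and 11.8 CPM in control cells, 10.3, 13.1 and 11.9 CPM at 10 nM, and 18.5, 19.6 and 16.1 CPM at 20 nM. Only the higher concentration separated from the controls, where 15.2% of all genes lay wholly above them. The log2 change of DTX3L was 0.67 ± 0.11 (SE) against Ctrl (adjusted p 0.00154) and 0.67 ± 0.11 against 10 nM (adjusted p 0.00427). Its partner PARP9 rose by 0.39 (adjusted p 0.0333), and LGALS3BP, a secreted glycoprotein, rose from 350 ± 27.6 to 452 ± 19.4 CPM (0.35, adjusted p 0.00618).

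The calls of DTX3L and LGALS3BP held in all 21 alternatives and that of PARP9 in 15. In their longest 3′ UTRs, LGALS3BP held a match of 8 bases for the seed, DTX3L a 6-base match and PARP9 none. HLA-C was at 0.32 (adjusted p 0.13), and under the replicate block at 0.40 (adjusted p 0.0111). That fit called SAMD9L, named after its value was seen, lower at -0.62 (adjusted p 0.0461). The genes most used as marks of an interferon response lay close to the lowest levels of the table: IFIT1 at 1.43 ± 0.3 CPM in control cells and 1.73 ± 0.448 CPM at 20 nM, ISG15 at 0.988 ± 0.0659 and 1.13 ± 0.0336 CPM, and MX1 at 1.26 ± 0.535 and 0.762 ± 0.223 CPM (SD, n = 3). Their adjusted p were 0.276, 0.733 and 0.163. Among the 33, 20 hold GAAANNGAAA in a listed promoter, and the 3 called genes are among them. The median was 0.12 with the motif, -0.02 for the 7 without it and 0.03 for the 6 that had no promoter entry, and this split was not tested.

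**Figure D5:**
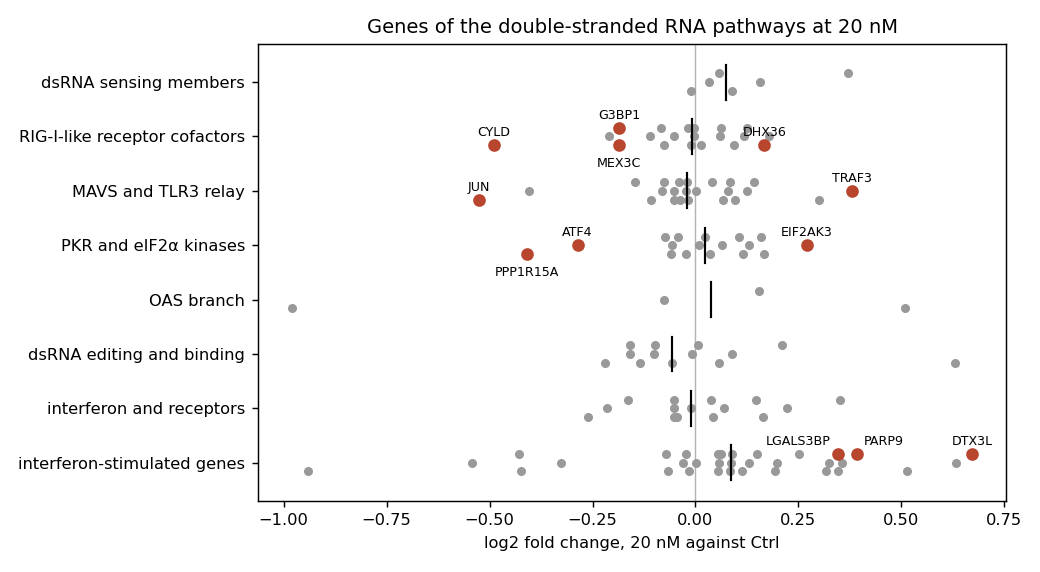
Fitted log2 fold change at 20 nM against Ctrl (horizontal axis) of every tested gene of the members and of 7 lists of their pathways; red points with a name have an adjusted p under 0.05, grey points do not, and vertical bars are list medians. Red points are found to both sides of 0 among the receptor cofactors, the relay and the PKR branch, to the right only among interferon-stimulated genes, and not at all among the members.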

How the data were processed

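Polyadenylated RNA of 9 libraries was sequenced. The authors mapped reads with salmon onto GRCh38.p13, summed them to genes by symbol and filtered low genes, and they deposited estimated counts (expected counts, 88.8% of the values not whole), the unit used here. RNA of a pair of wells was pooled where possible. Near-identical copies and overlapping genes can exchange reads in such counts. The deposited tables of comparisons and of corrected log2 values were not used. Totals of 17.4 to 28.2 M set the precision.

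Rounded counts entered edgeR 4.0.16 (R 4.3.3; TMM scaling, quasi-likelihood test over all 9 libraries). Surrogate variables came from sva 3.50.0 on log2 CPM (prior count 2, num.sv method be, seed 1, held between 1 and 3), which gave 1 by group and 2 by concentration with columns in file order; with libraries ordered by group it gave another number for concentration, so the fit with 1 was kept as an alternative. filterByExpr removed 0 further genes, so the alternative with no further filter repeats the reported fit. CPM are not corrected for surrogate variables, so ratios of means can differ from fitted folds. Intervals are at 95% from the SE and the test's degrees of freedom. The fits were tested on simulated counts.

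Alternatives were other scalings, surrogate variables, filters and tests (DESeq2 1.42.0, likelihood-ratio test), mimic present or absent, each library left out, and the replicate block. Same-numbered libraries deviated together, with correlations of 0.142 to 0.185 between Ctrl and 10 nM and 0.107 to 0.116 between Ctrl and 20 nM, so the numbers pair them with the controls. Between 10 nM and 20 nM the correlations were 0.174, 0.0288 and 0.176 for replicates 1, 2 and 3. No library was a copy of another (chi-square of 4.78 to 47 per degree of freedom within groups).

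All members with a row were named, with fixed partners (TBK1, PRKRA, TARBP2, DHX9, ADARB1, IFIT1, ISG15, MX1, IFNB1) and up to 4 genes of each list by the smallest p at 20 nM; some of the listed genes are not reported here. The members and lists were chosen with earlier results of these data known. UTRs and gene positions came from GENCODE 44, promoters and the microRNA from RefSeq, and both are on GRCh38.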

Additional observations from a re-analysis of the deposited data

How the results depend on the processing

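The number of members called was 0 at 10 nM and between the concentrations under every alternative run. At 20 nM it rose from 0 to 2 without 20 nM replicate 3 with the number of surrogate variables chosen again (EIF2AK2 and ADAR, with 29.2% of all genes called) and to 1 under the replicate block with 1 surrogate variable, and ranged from 0 to 1 when single libraries were left out (1 without 20 nM replicate 3). In the dose trend it rose from 0 to 1 with 1 surrogate variable, with the likelihood-ratio test and without 20 nM replicate 3 with the number chosen again, and to 2 under the block with 1 surrogate variable. It ranged from 0 to 2 when single libraries were left out, with 2 without 20 nM replicate 1 (26.6% of all genes called), and 1 without 10 nM replicate 2 or 20 nM replicate 3. The block in place of surrogate variables changed no call of a member, and its changed calls of other genes stand beside their values. Between the concentrations the block took the count over all genes from 417 to 124. There the same-numbered 10 nM and 20 nM libraries correlated at 0.174, 0.0288 and 0.176 for replicates 1, 2 and 3. Over all genes the counts ranged from 3 (replicate block) to 1566 (block with 1 surrogate variable) at 10 nM, from 954 (no surrogate variables) to 4370 (without 20 nM replicate 3, number chosen again) at 20 nM, from 67 to 1524 between the concentrations, and from 166 (mimic present or absent) to 4581 in the dose trend. The number chosen again, the block with 1 surrogate variable and the sum with the read-through row were chosen after seeing the data.

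Of 510 values of the members under alternatives, 447 kept their side of the threshold and sign, 13 passed it newly, none lost it, and 50 changed sign without a call. These include repeats: the fit with no further filter is the reported one, and in the dose trend the fits without 20 nM replicate 3 gave the same counts over all genes. For the other named genes, 90 of 1759 values lost the threshold and 105 gained it. Reversals among these values were those of RNASEH2C at 20 nM, from -0.21 to 0.11 without surrogate variables and to 0.078 under the replicate block. NFKB2 and RELB, named after their values were seen, are outside these counts. Under the replicate block they also changed sign at 20 nM, from -0.02 to 0.42 and from -0.40 to 0.41. The cause was not tested. TLR3 is limited by depth, at 26 to 53.1 estimated counts per library.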

Other observations

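The neighbouring pathway, the sensing of DNA, was also among the lists. Of 10 genes, 7 were tested, and CGAS, IFI16 and AIM2, sensors of DNA in the cytosol and nucleus, had no row. None was called at 10 nM in the edgeR test (0 at an unadjusted p under 0.05), and 1 was called lower at 20 nM, where 6.08% of all genes were. At 10 nM 0.649% of all genes were called, and 13.9% had an unadjusted p under 0.05. RNASEH2C, a subunit of the enzyme that cuts RNA in RNA and DNA hybrids, had 73.2, 80.5 and 76.7 CPM in control cells and 69.8, 67.7 and 111 CPM at 20 nM. The fitted log2 fold change was -0.21 (adjusted p 0.0454; 0.08 and 0.704 under the replicate block), while the mean CPM at 20 nM was the higher one, with replicate 3 alone above the controls. RNASEH2A likewise had 79.6 CPM in that library against 52.4 to 61.4 CPM in the other 8, with a fitted value of -0.11 (adjusted p 0.273). RNASEH2B, the third subunit, had 40.4 CPM in it against 41.8 to 44.5 CPM elsewhere (0.07, adjusted p 0.428). SAMHD1, which degrades deoxynucleotides, was at -0.10 (adjusted p 0.513).

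In that library, 20 nM replicate 3, the members' summed level was 845 CPM against 742 to 810 CPM in the other 8, the largest part of it ADAR. The summed level of the interferon-stimulated genes was 1340 CPM there, against 964 to 1240 CPM elsewhere. Without it, these sums at 20 nM were 807 and 810 CPM for the members and 1090 and 1240 CPM for the interferon-stimulated genes, against 755 to 785 and 964 to 1070 CPM in control cells. LGALS3BP alone held 430 and 458 CPM of the interferon-stimulated sums in those 20 nM libraries, against 322 to 377 CPM in control cells. The sums therefore do not stand for the whole list.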
